A study of Mus musculus with 8 samples.

Results

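Mitochondrial ribosomal protein genes were taken as the genes of the deposited table whose symbol is Mrpl or Mrps followed by a number and at most 1 letter, with pseudogene names left out. The rule found 75 members among 16940 listed genes, 47 named for the large subunit (Mrpl) and 28 named for the small subunit (Mrps). It used no measured value. All 75 passed the filter on low values, a mean of at least 10 normalized reads over the 8 libraries, and the lowest mean was 32.1. Mrpl33, Mrpl53 and Mrps6 were not analysed here.

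The mitochondrial ribosome translates the few messenger RNAs encoded by mitochondrial DNA, whose products are core subunits of the respiratory chain and of ATP synthase. Its ribosomal RNAs come from mitochondrial DNA, but all of its proteins are encoded in the nucleus, made in the cytosol and imported, so that its assembly depends on many unlinked nuclear genes. Some of the proteins descend from bacterial ribosomal proteins, and others are found only in mitochondria. The letter in the symbol does not always give the place of the protein: the products of Mrps30 and Mrps18a sit in the large subunit, and Mrps36 is now known as a component of the 2-oxoglutarate dehydrogenase complex.

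Newly made RNA was measured by transient transcriptome sequencing (TT-seq) in E14 mouse embryonic stem cells grown without serum in medium with LIF and inhibitors of MEK and GSK3. The cells were labelled with 400 µM 4-thiouridine for 15 min, and the labelled RNA was fragmented, captured and sequenced. Every group carried the CTCF AID genotype, whose tag lets the auxin IAA trigger degradation of CTCF, the DNA-binding anchor of many chromatin loops. The 4 groups were an overexpressed control without IAA, the same control with 12 h of IAA, overexpressed wild-type CTCF with 12 h of IAA and overexpressed mutated CTCF with 12 h of IAA, each with 2 replicates. The labels do not name the mutation, the clones or the promoter that drives overexpression, and do not say whether replicates were separate cultures. The p-values therefore measure only the spread between these samples, which may be technical. The comparisons ask what removal of CTCF does to nascent transcription and how far each CTCF form restores it. Neither CTCF line was measured without IAA, and the clones are not named, so the CTCF form and its line cannot be told apart.

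Depth ran from 15671114 to 21561141 reads per library, recovered from the step of the deposited values, and 1 read was worth 0.836 to 1.19 normalized reads. The 8 stem cell markers were all listed, with means of at least 1212 normalized reads. Of 6 fibroblast markers none was listed, and the highest markers of primitive endoderm and trophoblast were Gata4 at a mean of 129.8 and Eomes at 57.9. Of 6 neural markers 2 were listed, Map2 at a mean of 445.8 and the other at 9.83. Sums over the listed markers of 2 other cell types were highest with wild-type CTCF. The neural sum, nearly all of it Map2, was 563.8 to 599.7 normalized reads against 352.6 to 487.9 in the other libraries. The trophoblast sum, over 3 listed of 6 markers, was 100.5 to 110.2 against 52.2 to 75.0. The 4 listed of 6 primitive endoderm markers summed to 194.8 to 227.6 untreated and 269.5 to 331.1 in the control with IAA. Their part in the results below was not tested. The gene for CTCF was not analysed here, so the depletion was not checked at its own gene. Replicates of a group differed over the members by a median absolute 0.08 on the log2 scale. Relative to the untreated control, the median member of the wild-type CTCF libraries lay 0.05 higher in the first and 0.14 higher in the second replicate, which was the widest gap between replicates of a group.

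Promoters of 66 of the 75 members were found in RefSeq (GRCm38.p6), each a window from 250 bases before to 50 bases after a gene start. Those of Mrpl23, Mrps2, Mrpl57 and Mrps23 are printed 5′ to 3′ on the strand of the gene. Mrpl23 and Mrps2 fell most with IAA, Mrpl57 differed most between the CTCF forms and Mrps23 was higher with both forms. Capitals mark matches, on either strand, to the short motifs given after them.
Mrpl23 (chr7:142532782-142533081, plus strand): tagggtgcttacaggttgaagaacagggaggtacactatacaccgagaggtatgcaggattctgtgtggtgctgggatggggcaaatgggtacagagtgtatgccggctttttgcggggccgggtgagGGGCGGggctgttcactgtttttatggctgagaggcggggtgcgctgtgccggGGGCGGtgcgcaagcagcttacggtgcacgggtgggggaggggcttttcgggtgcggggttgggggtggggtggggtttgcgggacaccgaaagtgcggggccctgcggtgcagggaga
Mrps2 (chr2:28467816-28468115, plus strand): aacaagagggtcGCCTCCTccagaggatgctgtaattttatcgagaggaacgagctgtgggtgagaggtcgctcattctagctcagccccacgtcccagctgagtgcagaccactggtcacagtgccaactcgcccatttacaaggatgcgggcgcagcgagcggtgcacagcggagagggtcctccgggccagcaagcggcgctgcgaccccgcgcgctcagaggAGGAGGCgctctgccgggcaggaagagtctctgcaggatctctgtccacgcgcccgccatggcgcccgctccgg
Mrpl57 (chr14:57825989-57826288, plus strand): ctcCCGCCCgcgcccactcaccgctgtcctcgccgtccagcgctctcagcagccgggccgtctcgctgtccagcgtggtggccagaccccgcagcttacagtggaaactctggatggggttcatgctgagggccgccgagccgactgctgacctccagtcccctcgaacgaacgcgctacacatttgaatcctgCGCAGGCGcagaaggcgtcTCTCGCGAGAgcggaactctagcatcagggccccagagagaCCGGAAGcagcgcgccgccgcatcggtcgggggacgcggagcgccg
Mrps23 (chr11:88204138-88204437, plus strand): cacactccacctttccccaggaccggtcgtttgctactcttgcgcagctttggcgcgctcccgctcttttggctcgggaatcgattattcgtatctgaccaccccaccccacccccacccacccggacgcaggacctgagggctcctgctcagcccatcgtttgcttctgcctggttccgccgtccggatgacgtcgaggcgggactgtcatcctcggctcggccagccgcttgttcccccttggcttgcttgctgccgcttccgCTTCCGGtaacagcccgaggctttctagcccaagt
The motifs searched were the NRF1 core CGCATGCG and its looser form CGCANGCG, the ETS motif CCGGAAG bound by GABP, the YY1 motif AAGATGGCG, the SP/KLF box GGGCGG, the CGCG element TCTCGCGA, the CTCF core AGGNGGC and the TATA box TATAAA. The capitals of Mrpl23 are 2 SP/KLF boxes. Those of Mrps2 are 2 CTCF cores, the first read on the opposite strand. In Mrpl57 they are an SP/KLF box on the opposite strand, a looser NRF1 core, the CGCG element in 2 overlapping matches and an ETS motif, and in Mrps23 an ETS motif on the opposite strand. The RefSeq start of Mrpl23 lies inside the gene as GENCODE M21 draws it, so this window is not upstream of the annotated gene start. The windows of Mrpl50 and Mrps16 are not printed. That of Mrpl50 held none of these motifs, and those of Mrps16 held SP/KLF boxes and ETS motifs.

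Over all members with a promoter window, the ETS motif was found in 36.4% (24 of 66), against 18.3% of 11909 listed genes with a window. The YY1 motif was found in 12.1% against 3.14%, the NRF1 core in 10.6% against 4.00% and its looser form in 30.3% against 17.7%. NRF1, GABP and YY1 are transcription factors known to act on nuclear genes for mitochondrial proteins. The SP/KLF box was found in 50% of members against 64.8% of all, and the CTCF core in 22.7% against 43.9%. The TATA box (7.58% against 9.23%) and the CGCG element (1.52% against 2.27%) were rare in both. The ETS motif was found in 31.7% of large subunit promoters and 44.0% of small subunit promoters, and the NRF1 core in 14.6% and 4.00%. These shares describe letters in a fixed window and were not tested, and a match is not evidence that a factor binds.

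A longer CTCF consensus of 14 positions, searched with at most 1 mismatch within 1000 bases of the GENCODE start and chosen after seeing the data, was found at 5 of 75 members (6.67%) against 10.15% of tested genes with a sequence. The 5 matches are printed because CTCF is the protein removed.
Mrpl11 (chr19:4962009-4962022, plus strand): CCAGCAGATGGCAA
Mrpl17 (chr7:105811255-105811268, minus strand): CCGGCAGGGGGCGC
Mrpl28 (chr17:26122898-26122911, minus strand): CCAGTAGGGGTCAG
Mrpl38 (chr11:116139043-116139056, plus strand): CCACTAGGAGGCAG
Mrps33 (chr6:39810825-39810838, minus strand): ACAGCAGAGGGCGG
Coordinates are on GRCm38. Each match carries 1 mismatch to the consensus. The search found none at Mrpl23 or Mrps2, which says only that these letters are not in those windows.

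The members were short genes. Their median gene body was 7894 bp, against 27774 bp for tested protein-coding genes, and their median level was 40.6 normalized reads per kb of gene body against 17.8. Not divided by length, their median level was lower than that of protein-coding genes, 330.4 against 385.4 normalized reads, so the order of the 2 medians depends on the division by gene body. In every library the members took between 0.217% and 0.230% of all normalized reads. Across the 75 members Spearman's rho of the normalized read count was 0.75 with gene body length and 0.56 with exon length, so levels are given here per kb of gene body. Members share the libraries, and whether introns were counted is not given in the sources used here.

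Mrps2, which encodes the counterpart of a bacterial small subunit protein, had the highest level of the 75 on this scale averaged over the libraries, at 137.8 normalized reads per kb of gene body. The rank did not hold in the control with IAA, where Mrps2 had 47.8 and Mrps30 led with 115.0. Over all libraries Mrps30 followed at 114.8, and Mrpl15, Mrpl17 and Mrpl18 led the large subunit at 113.6, 107.8 and 103.2. Mrpl23 was lowest at 4.06, next to Mrpl48 at 11.04 and Mrpl14 at 14.9. In the small subunit the lowest were Mrps24 at 17.6, Mrps26 at 18.0 and Mrps34 at 22.7. The medians of the large and small subunit members were 45.0 and 37.4. Per kb of exon the order was different, with Mrps28 at 5190, Mrps27 at 1253 and Mrpl1 at 689 as the highest; these genes have bodies of 121773, 70777 and 57235 bp. Neighbours in either order were not tested against each other.

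**Figure D1:**
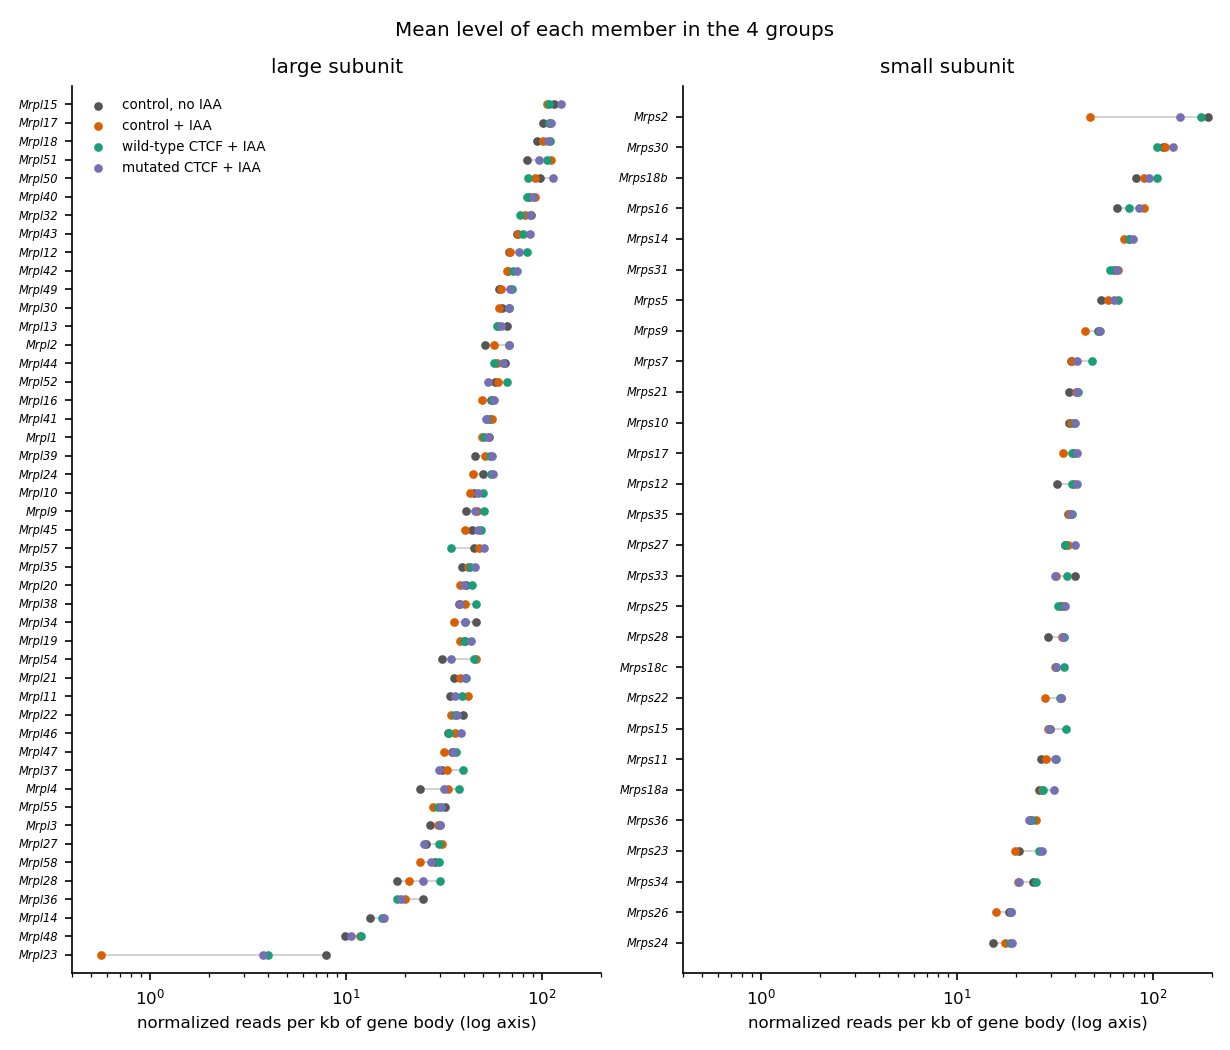
Mean normalized reads per kb of gene body (log axis) of each member in the 4 groups, 1 point per group mean of 2 libraries, large subunit left and small subunit right. The 4 points of most members lie close together, while those of Mrpl23 and Mrps2 spread, with the control with IAA lowest.

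With 12 h of IAA in the control, 15 of 75 members (20.0%) passed the threshold, against 37.7% of all 15818 tested genes (limma with Benjamini-Hochberg adjustment over all tested genes, adjusted p under 0.05). Of these members 7 were higher and 8 lower, where 19.4% of all tested genes were higher and 18.4% lower. The large subunit had 9 called of 47 (5 higher, 4 lower) and the small subunit 6 of 28 (2 higher, 4 lower). The median log2 fold change was 0.03 over the members and -0.00 over all tested genes. Only Mrpl23 and Mrps2 moved by at least 1 on the log2 scale (2.67% of members, against 4.34% of all tested genes), and 3 of 75 by at least 0.5 (4.00%, against 17.6%). Without the second control library with IAA, 9 members were called. With the libraries rescaled to the same total the split was 6 higher and 13 lower, beside 2568 higher and 4100 lower of all 15818 tested genes. With median-of-ratios factors it was 8 and 10, beside 3317 and 3113.

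**Figure D2:**
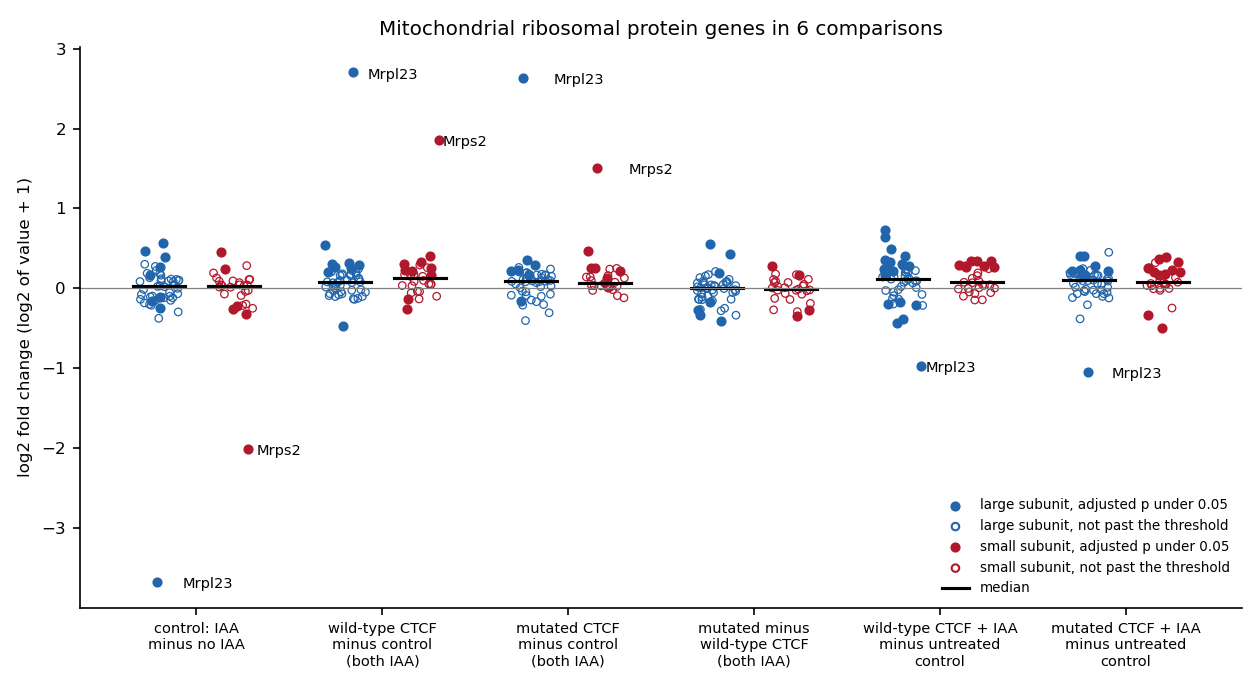
Log2 fold change of each of the 75 members in the 6 comparisons, large subunit in blue and small subunit in red; filled points passed the threshold (limma, adjusted p under 0.05), open points did not, and bars are medians. Mrpl23 and Mrps2 stand apart with IAA (-3.67 and -2.004) and in both comparisons of a CTCF form with the control, and no median of a subunit exceeds 0.13.

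Mrpl23 (ENSMUSG00000037772.13, chr7:142532686-142540747, plus strand, GRCm38) encodes a large subunit protein near the exit of the peptide tunnel, and the gene lies near the imprinted H19 and Igf2 genes. It had 62.7 and 64.7 normalized reads in the untreated control libraries. In the control with IAA it had 2.38 and 6.60, which were 2 and 6 reads. The libraries of wild-type CTCF held 36.7 and 27.8, and those of mutated CTCF 29.3 and 31.6. The libraries of the control with IAA lay below all others, and those of both CTCF forms lay between them and the untreated control without overlap with either.

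The log2 fold change of Mrpl23 with IAA was -3.67 ± 0.31 (SE, adjusted p = 9.91e-13), the largest fall among the members. With so few reads the value depends on the pseudocount and the library: it was -2.36 with a pseudocount of 10, and -4.26 without the second control library with IAA. Summed reads gave a ratio 13.9-fold lower, with a 95% interval of 6.88 to 32.8 for counting error only. Mrpl23 was higher than the control with IAA by 2.70 (adjusted p = 6.72e-09) with wild-type CTCF and by 2.63 (adjusted p = 9.21e-09) with mutated CTCF, or by 1.55 and 1.496 with a pseudocount of 10. Both lines stayed below the untreated control, at log2 fold changes of -0.97 (adjusted p = 0.0107) and -1.04 (adjusted p = 0.00707). These last calls ended without the mean-variance trend of the fit and without either untreated library, and with wild-type CTCF also without its second library, with adjusted p up to 0.101 and 0.0966 over the alternatives. The 2 forms differed by -0.07 ± 0.31 (adjusted p = 0.888), which turned to 0.13 without the first wild-type CTCF library; the ratio of summed reads was 0.932 with an interval of 0.647 to 1.34.

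Mrps2 (ENSMUSG00000035772.11, chr2:28468066-28471178, plus strand) had 591 and 603 normalized reads in the untreated control libraries and 135 and 163 in the control with IAA. With wild-type CTCF it had 483 and 606, and with mutated CTCF 378 and 476. The control with IAA lay below every other library, the wild-type CTCF libraries spanned those of the untreated control, and the mutated CTCF libraries lay below both.

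For Mrps2 the fall with IAA was -2.004 ± 0.10 on the log2 scale (adjusted p = 1.18e-19), or 4.00-fold by summed reads (3.50 to 4.58). It was higher than the control with IAA by 1.86 with wild-type CTCF (adjusted p = 4.82e-18) and by 1.51 with mutated CTCF (adjusted p = 2.26e-15). Against the untreated control it was -0.14 with wild-type CTCF, which did not pass the threshold, and -0.49 with mutated CTCF (adjusted p = 1.36e-04), a call lost without the mean-variance trend of the fit (adjusted p = 0.0847). The value with wild-type CTCF was 0.02 without its first library and -0.31, past the threshold (adjusted p = 0.0174), without its second. The 2 forms differed directly, by -0.35 ± 0.10 with the mutated form lower (adjusted p = 0.00619), and that call ended without the second wild-type or the first mutated CTCF library, or without the trend (adjusted p up to 0.236).

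The nearest listed genes were read beside these members. After Mrpl23 the next listed genes were Tspan32os, an antisense transcript whose start lies 475.3 kb away, and Tspan32. Tspan32os changed by -2.10 with IAA, 1.41 with wild-type CTCF and 1.40 in mutated CTCF cells, each past the threshold. Tspan32 had values of 0.36, -0.03 and 0.37 and passed in none, and Ctsd, the nearest listed gene before Mrpl23, had 0.12, 0.27 and 0.03. Farther on, the noncoding R74862 had -1.18, -0.02 and 0.77, of which the first and the last passed, and Cd81 was lower with IAA by 0.60 and higher by 0.66 and 0.45 with the CTCF forms. Around Mrps2, 1700007K13Rik starts 1.73 kb before it and had -0.26, 0.37 and 0.75, of which the last passed. Ppp1r26, farther before Mrps2, had -0.53, 0.58 and 0.44, of which the second passed. Farther before it, Olfm1 and Col5a1 were higher with IAA, by 0.66 and 0.69, and Col5a1 was at -0.44 in mutated CTCF cells, which passed. Before Mrpl23, Brsk2 was higher with IAA by 0.40. Gbgt1, after Mrps2, had 0.04, -0.01 and -0.07.

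**Figure D3:**
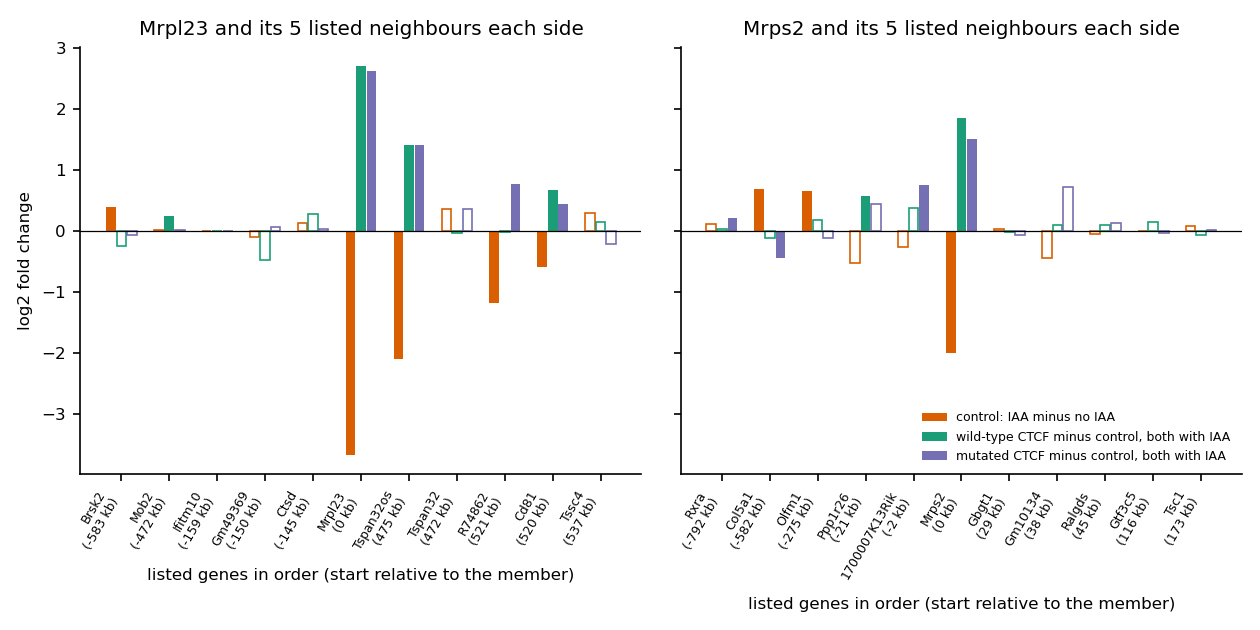
Log2 fold changes of Mrpl23 (left), Mrps2 (right) and the 5 listed genes on each side, with the distance of each start from that of the member; filled bars passed the threshold, open bars did not, and a gene below the minimum mean has no bar. Mrpl23 and Tspan32os both show a fall with IAA and higher values with both CTCF forms, and the largest fall drawn around Mrps2 is that of Ppp1r26 (-0.53, not past the threshold).

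The other 6 members that fell with IAA changed by less than 0.4. Mrps9, the counterpart of a bacterial small subunit protein, had 2418 and 2461.5 normalized reads with IAA and at least 2812.5 in every other library, so that the control with IAA lay apart. Its log2 fold change was -0.22 ± 0.04 (adjusted p = 3.21e-05). The others were Mrps33 at -0.32, Mrps22 at -0.26, Mrpl58 at -0.25, Mrpl13 at -0.15 and Mrpl1 at -0.11. Mrpl58 encodes a peptidyl-tRNA hydrolase that became part of the large subunit. Each of these 5 calls was lost in at least 2 of 14 alternatives, with adjusted p up to 0.0852 for Mrps33, 0.247 for Mrps22, 0.238 for Mrpl58, 0.122 for Mrpl13 and 0.187 for Mrpl1.

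Among the 7 members that rose with IAA, 5 passed in every alternative. Mrps16 had 288 and 280 normalized reads in the untreated control and 391 and 390 with IAA, and both later lines lay between, at 323 and 327 with wild-type CTCF and 369 and 365 with mutated CTCF. No 2 groups of Mrps16 overlapped, and its rise was 0.46 ± 0.08 (adjusted p = 3.10e-05). Mrpl4 had 152 and 140 normalized reads untreated and 194 and 211 with IAA, a rise of 0.47 (adjusted p = 8.81e-04). Mrpl51 rose by 0.40, Mrpl48 by 0.27 and Mrps28 by 0.25, the last from 3450 and 3619 to 4212 and 4168.5 normalized reads (adjusted p = 1.39e-06). The largest rise was that of Mrpl54, 0.56 ± 0.18, but it was lost without any of 3 of the 4 libraries compared or without the trend (adjusted p up to 0.157), and Mrpl39 at 0.17 reached an adjusted p of 0.389.

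**Figure D4:**
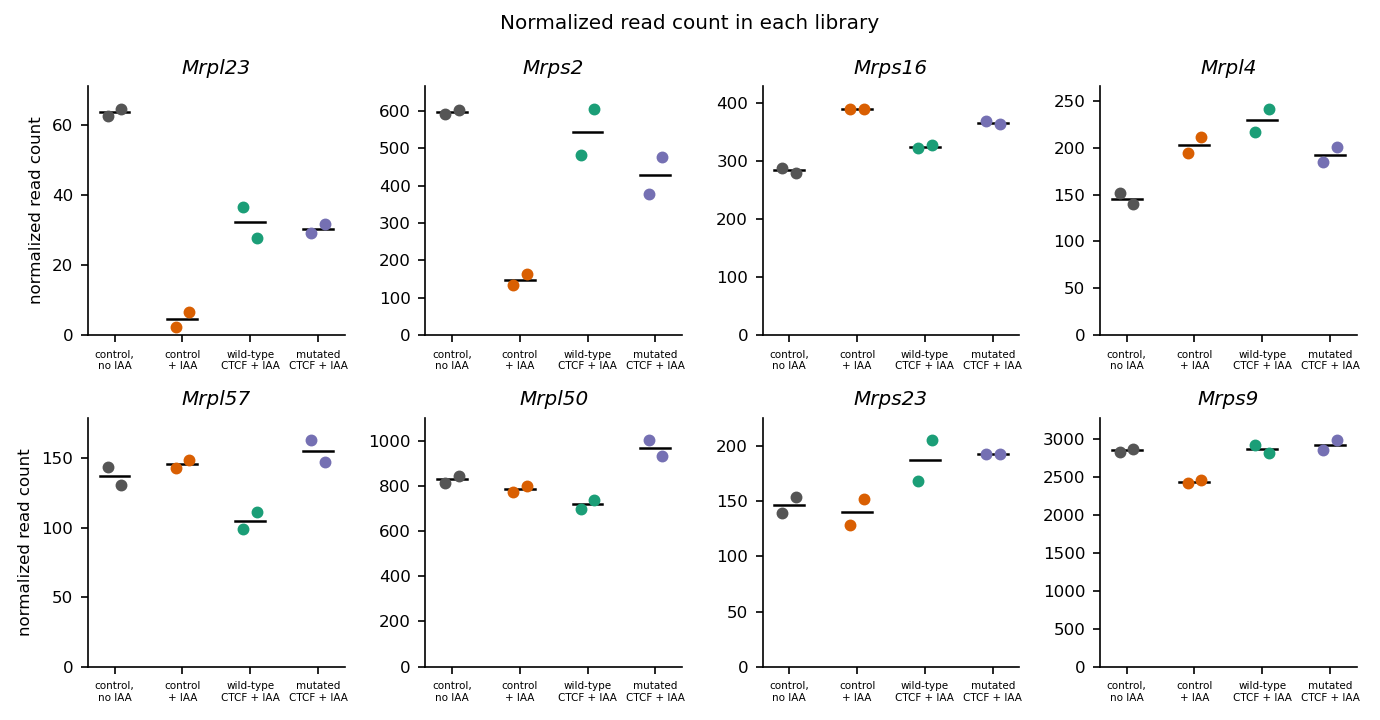
Normalized read count of 8 members in each of the 8 libraries, axes from 0, with the group mean as a bar. Mrpl23 and Mrps2 are lowest in the control with IAA, Mrps16 and Mrpl4 are lowest in the untreated control, and the group means of Mrpl57 and Mrpl50 are lowest with wild-type CTCF and highest with mutated CTCF.

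Wild-type CTCF was set against the control, both with IAA, and 19 of 75 members passed, 16 higher and 3 lower. Of all tested genes 31.6% passed, 21.5% higher and 10% lower. The small subunit had 10 called of 28 (8 higher, 2 lower) and the large subunit 9 of 47 (8 higher, 1 lower). Mrpl23 and Mrps2 were the members past 1 on the log2 scale, where 1.94% of all tested genes were. The median was 0.09 for members and 0.06 for all tested genes, and that shift depends on the scale. With median-of-ratios factors the medians were 0.03 and 0.00. The members then split 9 higher to 6 lower, beside 2547 to 2513 of all tested genes. Without the second wild-type CTCF library 5 members were called, without the first or second control library with IAA 10 and 11, and without the mean-variance trend of the fit 7.

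Only Mrpl23, Mrps2 and Mrps9 passed in every alternative of this comparison that tested them; Mrpl23 falls below the stricter minimum mean of 50. Mrps9 rose by 0.23 ± 0.04 (adjusted p = 3.07e-05), to 2923.5 and 2812.5 normalized reads. Mrps23, a protein found only in the mitochondrial small subunit, had 140 and 154 normalized reads untreated, 129 and 152 with IAA, 169 and 205 with wild-type CTCF and 193 in each mutated CTCF library. The libraries of both CTCF forms lay above those of both controls. Mrps23 was higher than the control with IAA by 0.41 with wild-type CTCF (adjusted p = 0.0101), a call lost without the first control library with IAA, the second wild-type CTCF library or the mean-variance trend (adjusted p up to 0.206).

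Further members of the large subunit that were higher with wild-type CTCF were Mrpl28 at 0.54, Mrpl58 at 0.32, Mrpl24 at 0.31 and Mrpl12 at 0.30, the last encoding a stalk protein that also binds the mitochondrial RNA polymerase. Those of the small subunit were Mrps7 at 0.33, Mrps15 at 0.30 and Mrps22 at 0.25. Each of these calls was lost without the second wild-type CTCF library. Without the second control library with IAA Mrpl28 was at 0.24 (adjusted p = 0.454) and Mrpl12 at 0.18 (adjusted p = 0.247), and Mrps15 and Mrps22 were at 0.17 and 0.14 without the second wild-type CTCF library (adjusted p = 0.366 and 0.349). The members that fell were Mrpl57 at -0.47 ± 0.13 (adjusted p = 0.00526), Mrps16 at -0.26 (adjusted p = 0.0156) and Mrps31 at -0.14 (adjusted p = 0.0468). Mrpl57 lost the call without the first wild-type CTCF library (adjusted p = 0.0551), Mrps16 without any of the 4 libraries compared (up to 0.0687), and Mrps31 in 6 of 14 alternatives (up to 0.312).

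Mutated CTCF was set against the same control, and 13 of 75 members passed, 12 higher and 1 lower. Of all tested genes 34.3% passed, 22% higher and 12.4% lower, and 2.72% moved by at least 1 on the log2 scale, as Mrpl23 and Mrps2 did. The large subunit had 7 called of 47 and the small subunit 6 of 28. Median-of-ratios factors gave 10 higher and 4 lower members, beside 2708 and 2682 of all tested genes. Rescaling to the same total gave 11 and 3, beside 3117 and 2474. Without the mean-variance trend of the fit 4 members were called, without the first control library with IAA 7, and without the second mutated CTCF library 8. Beside Mrpl23 and Mrps2, the calls that held in every alternative were Mrpl50 at 0.30 ± 0.06 (adjusted p = 1.78e-04) and Mrps9 at 0.26 ± 0.04 (adjusted p = 4.25e-06). Mrps23 was higher by 0.46 ± 0.12 (adjusted p = 0.00322), lost without the first control library with IAA or without the trend (up to 0.0840). Mrpl24 at 0.35, Mrps22 at 0.26, Mrpl15 at 0.23, Mrpl45 at 0.21 and Mrpl42 at 0.17 were also higher. The call of Mrpl15 was lost in 1 of 14 alternatives and each of the others in 3, with Mrpl45 as low as 0.13. Mrpl45 encodes the protein that ties the ribosome to the inner membrane. The member that fell was Mrpl48, at -0.16 (adjusted p = 0.0498), which passed in 7 of 14 alternatives.

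The mutated and the wild-type form were compared directly, where the form and the line that carries it cannot be told apart. Here 11 of 75 members passed, 5 higher and 6 lower with the mutated form, against 34.7% of all tested genes, of which 16.3% were higher and 18.4% lower. No member reached a difference of 1, which 3.91% of all tested genes did. The median was 0.00 over members and -0.01 over all tested genes. Without the second wild-type CTCF library 6 members were called, without the first mutated CTCF library 7, and without the trend 6.

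Mrpl57 and Mrpl50 were the members with the largest excess in mutated CTCF cells. Mrpl57, a protein of the large subunit with no bacterial counterpart, had 144 and 131 normalized reads in the untreated control and 143 and 148 with IAA. It had 98.8 and 111 with wild-type CTCF and 163 and 147 with mutated CTCF. The wild-type CTCF libraries lay below all other libraries, and the difference between the forms was 0.56 ± 0.13 (adjusted p = 8.52e-04). Mrpl50 had 812 and 846 normalized reads untreated, 774 and 797 with IAA, 699 and 739 with wild-type CTCF and 1002 and 933 with mutated CTCF. Its 4 groups did not overlap, with wild-type CTCF lowest and mutated CTCF highest, and the forms differed by 0.43 ± 0.06 (adjusted p = 5.79e-07).

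Mrps30, whose protein sits in the large subunit, was higher with the mutated form by 0.27 ± 0.06 (adjusted p = 2.36e-04), at 1133 and 1120 normalized reads against 922 and 939. Mrpl15 and Mrps27 were higher by 0.19 and 0.17, and Mrps27 encodes an RNA-binding protein of the small subunit. Mrpl37 was lower with the mutated form, at 324 and 329 normalized reads against 416 and 449 with wild-type CTCF, a difference of -0.40 ± 0.09 (adjusted p = 2.75e-04). Its mutated CTCF libraries lay within the range of the untreated control, 317 and 361, and its wild-type CTCF libraries above every other library. Mrps2 (-0.35), Mrpl52 (-0.33), Mrps15 (-0.27), Mrpl38 (-0.27) and Mrpl48 (-0.17) were the other members that were lower with the mutated form. Only Mrpl50, Mrpl57, Mrps30 and Mrpl37 passed in every alternative; Mrpl52 reached an adjusted p of 0.346 and Mrps15 of 0.462.

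Set against untreated cells, the wild-type CTCF line gave 28 called members of 75, 22 higher and 6 lower, where 43.2% of all tested genes were called, 27.6% higher and 15.6% lower. The mutated CTCF line gave 21, 18 higher and 3 lower, where 37.8% were called, 24% higher and 13.7% lower. The excess of higher calls depends on the scale. Rescaled to the same total, the members split 12 higher to 13 lower for wild-type CTCF, beside 3221 to 3854 of all tested genes. For mutated CTCF they split 9 to 6, beside 2593 to 3420. With median-of-ratios factors the splits were 17 to 11, beside 3650 to 3396, and 13 to 5, beside 3138 to 2888. Without the first or second untreated library 13 and 10 members were called for wild-type CTCF, and without the first 10 for mutated CTCF. Without the trend the counts were 14 and 12. These comparisons differ from the untreated control in both the line and IAA, which cannot be told apart.

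Mrpl2, encoding the counterpart of a conserved bacterial protein of the peptidyl transferase region, was higher than the untreated control by 0.41 with each form (adjusted p = 0.00116 and 0.00134). Its libraries held 206 and 192 normalized reads untreated, 255 and 275 with wild-type CTCF and 279 and 251 with mutated CTCF, without overlap. Mrps28 was higher by 0.28 and 0.26 (adjusted p = 9.00e-08 and 5.25e-07). Mrpl4 was higher by 0.65 and 0.40, and Mrps18b by 0.35 and 0.21. The Mrps18b call with mutated CTCF was lost in 6 of 14 alternatives, with values as low as 0.13. Mrpl28 was higher by 0.73 with wild-type CTCF, but by 0.47 and not past the threshold without the second untreated library. Its call was also lost without the mean-variance trend. Mrps5 was higher by 0.28 and 0.21, and Mrps16 by 0.37 with mutated CTCF. The calls of Mrpl2 and Mrps28 passed in every alternative for both forms, those of Mrpl4, Mrps18b and Mrps5 in every alternative for wild-type CTCF, and that of Mrps16 for mutated CTCF. Members called lower included Mrpl36 at -0.43 and Mrpl57 at -0.39 with wild-type CTCF, and Mrps33 at -0.33 with mutated CTCF, beside Mrpl23 and Mrps2 given before. Mrpl36 lost its call without any of the 4 libraries compared or without the trend (adjusted p up to 0.158), Mrpl57 without the first untreated or the first wild-type CTCF library (up to 0.148) and Mrps33 without the first untreated library (0.0712). The small subunit had 8 of 28 called higher with wild-type CTCF (28.6%, near the 27.6% of all tested genes).

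Over the 6 comparisons 28 members passed in none and 47 in at least 1 (62.7%), where 73.3% of all tested genes passed in at least 1. Mrpl23 and Mrps2 passed in 5, and Mrpl48, Mrpl50 and Mrps23 in 4. Among those that passed in none were Mrpl40, Mrps18c, Mrps35 and Mrps36, whose lowest and highest libraries differed by 1.12-fold, 1.17-fold, 1.11-fold and 1.12-fold. The comparisons share libraries.

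Mrps18a, Mrps18b and Mrps18c are paralogs of a single bacterial small subunit gene, and the protein of Mrps18a sits in the large subunit. None of the 3 passed with IAA. Relative to the control with IAA, Mrps18b was higher by 0.22 in wild-type CTCF cells (adjusted p = 0.0260) and Mrps18a by 0.21 with mutated CTCF (adjusted p = 0.0405). Both calls were lost with median-of-ratios factors, and in 6 and 7 of 14 alternatives in all. Across these the value of Mrps18b fell as low as 0.13 and that of Mrps18a as low as 0.09. Mrps18c held 180 to 210 normalized reads in all 8 libraries and passed in none. Residual spread was largest for Mrpl23, Mrpl34 and Mrpl28 (residual SD 0.44, 0.33 and 0.29 on the log2 scale), which were also among the members with the fewest reads.

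A start of another listed gene on the opposite strand, within 1000 bases upstream or overlapping by up to 200 bases, was found at 24 of 75 members (32.0%) and at 14.8% of tested protein-coding genes. Both the member and its divergent partner passed in the same direction for 1 pair with IAA, 1 pair for each CTCF form against the control with IAA, and 2 pairs between the forms. With IAA this was Mrpl51 (0.40) with Ncapd2 (0.23), a condensin subunit. It was Mrps7 (0.33, lost in 7 of 14 alternatives) with Gga3 (0.26), whose gene bodies overlap, for wild-type CTCF, and Mrps27 (0.13, lost in 5 of 14 alternatives, adjusted p up to 0.164) with Ptcd2 (0.15, adjusted p = 0.0490) for mutated CTCF. Between the forms it was Mrpl37 (-0.40) with Cyb5rl (-0.86) and Mrpl57 (0.56) with Ska3 (0.15), which encodes a kinetochore protein. Zfp189, the partner of Mrpl50, had 0.27 and did not pass, and Sars2, the mitochondrial seryl-tRNA synthetase that shares a start region with Mrps12, rose by 0.58 with IAA while Mrps12 had 0.29 and did not pass. Across the 24 pairs Pearson's r of the log2 fold changes was 0.43 with IAA, 0.25 and 0.12 for wild-type and mutated CTCF against the control, and 0.61 between the forms. Spearman's rho was 0.37, 0.23, 0.12 and 0.51 in the same order. The 2 genes changed in the same direction in 15, 11, 13 and 14 of the 24 pairs. These values are a description because all pairs share the libraries. The gene bodies of 24 of 75 members overlapped a listed gene (32.0%, against 26.8% of tested protein-coding genes), among them Mrpl46 and Mrps11, which overlap each other on opposite strands. The libraries were strand-specific, but whether the counting used strand is not given in the sources used here, so reads of such pairs may be shared; Mrpl23, Mrps2, Mrpl57 and Mrpl50 overlapped no listed gene.

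**Figure D5:**
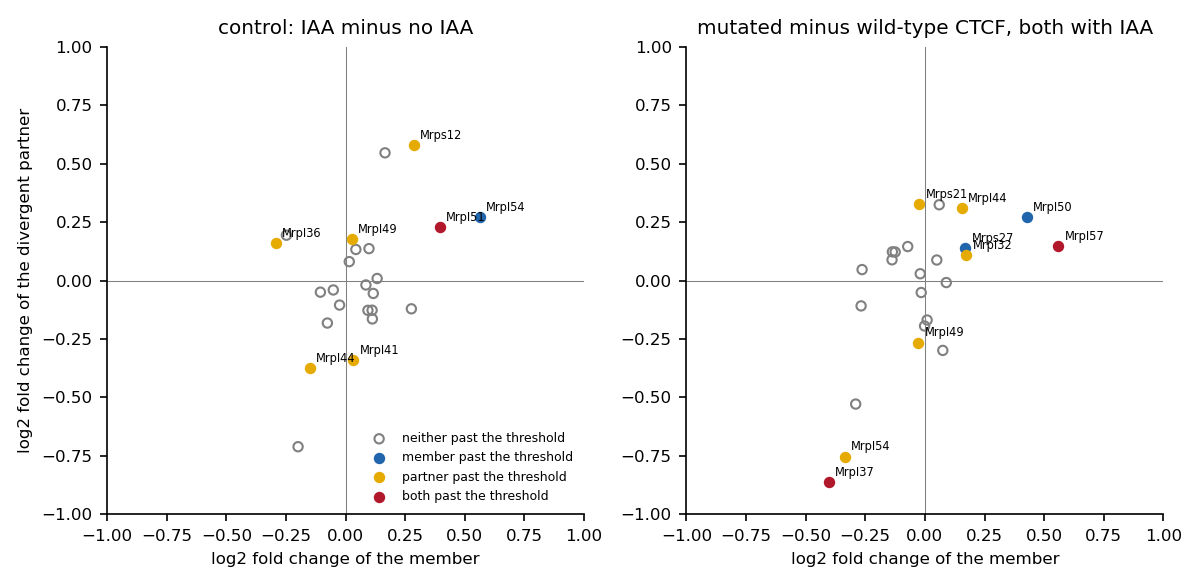
Log2 fold change of the 24 members with a divergent listed partner (x axis) against that of the partner (y axis), with IAA (left) and between the CTCF forms (right); colours mark which of the pair passed the threshold, and members of pairs with a call are named. Mrpl51 with IAA, and Mrpl37 and Mrpl57 between the forms, are the pairs in which both genes passed.

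The rest of the mitochondrial translation machinery was described by lists, of which these counts are a description. Of 5 ribosomal proteins listed under other names, Aurkaip1 passed with IAA (0.52), and Ptcd3, an RNA-binding protein of the small subunit, was higher with mutated CTCF than in the control with IAA (0.21). With wild-type CTCF 1 of the 5 was called lower than in the control with IAA and 0 higher. The lowest value of the list there was -0.42. Of 14 translation factors 4 were lower and 2 higher with IAA, and 2 of these moved by more than 1. Called were 42.9% of the list, against 37.7% of all tested genes, and 4.34% of all tested genes moved by at least 1. Gfm1, an elongation factor, dropped from a mean of 2235 to 957 normalized reads (-1.22, adjusted p = 3.49e-23), and Mtres1, a ribosome rescue factor, from 517 to 186 (-1.47, adjusted p = 1.61e-17). Both were higher with wild-type CTCF (1.06 and 1.30) and mutated CTCF (0.88 and 0.98) and lower with the mutated than with the wild-type form (-0.17 and -0.32). The factors that rose with IAA were Tufm (0.38) and Oxa1l (0.21).

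Of 24 genes for ribosome assembly and ribosomal RNA modification, 7 passed with IAA, where 37.7% of all tested genes did, and each of them was lower (18.4% of all), led by Mrm1 (-0.57), Tfb1m (-0.38) and Trmt61b (-0.34). By limma 0 of the 24 were higher, and the median of the list was -0.09. Relative to the control with IAA, 9 of the 24 were higher in mutated CTCF cells (22% of all tested genes) and 4 in wild-type CTCF cells (21.5% of all). Of 17 mitochondrial tRNA synthetases 5 were lower and 4 higher with IAA, from Aars2 at -0.92 to Sars2 at 0.58. Of 11 genes for expression of mitochondrial DNA 1 was lower (Tefm, -0.40) and 2 higher (Polg, 0.36, and Lrpprc, 0.19), and relative to the control with IAA 4 were higher in wild-type and 6 in mutated CTCF cells. Among 8 nuclear regulators of mitochondrial genes, Gabpb1 (-0.40), Gabpa (-0.15) and Yy1 (-0.14) were lower with IAA and Nrf1 (0.22), Pprc1 (0.30) and Myc (1.90, from 9.38 to 36.5 normalized reads) higher.

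Beside the members, the cytosolic ribosomal protein genes had 63 called of 79 with IAA, 60 of them higher, with a median of 0.21, where 37.7% of all tested genes were called and 19.4% higher. The nuclear-encoded oxidative phosphorylation genes had 26 called of 91, 13 in each direction, with a median of -0.02. Between the CTCF forms 42 of 79 cytosolic ribosomal protein genes were lower with the mutated form, with a median of -0.16, against 6 of 75 members and 18.4% of all tested genes. The median SE was 0.05 for cytosolic ribosomal protein genes, 0.07 for oxidative phosphorylation genes and 0.09 for the members. The difference between the lists was not tested. In bulk RNA, fewer cells of a type and less RNA per cell cannot be told apart.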

How the data were processed

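Normalized read counts per gene of 8 TT-seq libraries were used as the authors deposited them, a depth-scaled signal in which each library is its reads times 1 factor. Per the submitters' processing notes, Trim Galore, STAR, featureCounts and DESeq2 were used with mm10. Versions, the annotation, the counted feature and the strand setting are not given in the sources used here. Every value above 0 lay within 0.01 of a whole multiple of a step fitted to its library, which gave the recovered reads and so the depth. Intervals on summed reads are 95% and cover counting error only.

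Genes with a mean of at least 10 were kept (15818 of 16940). Values were taken as log2(value + 1), so fold changes of low genes are understated, and fitted over all 4 groups with limma 3.58.1 (R 4.3.3), with a mean-variance trend, 4 residual degrees of freedom and Benjamini-Hochberg adjustment over all tested genes at 0.05. Tables were handled with Python 3.11.15, pandas 2.3.3 and scipy 1.17.1. On simulated data of 15795 genes for the IAA comparison, 71.7% of genes changed by 0.5 and 90.4% of those changed by 1 were recovered, with 10 unchanged genes called. Gene positions are from GENCODE M21, which held 16917 of the listed identifiers.

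Members and lists were chosen with earlier results of these data known. Members could be named as up to the 5 highest and 5 lowest called in each subunit and comparison, those called in at least 4 comparisons, the 3 highest and 3 lowest per kb of exon in each subunit, the 3 with the largest residual SD, the Mrps18 paralogs, Mrps30, and members that overlap a listed gene or share a start with a called one. Gene body levels, the uncalled members with a narrow range, flanking genes and the longer CTCF consensus were added after values were seen. Gene by gene, same-numbered replicates did not deviate together (correlations of -0.0218 to 0.0282). In every group, however, the second replicate was the higher at the median. The gap was 0.0263 to 0.0497 on the log2 scale over all tested genes and 0.0221 to 0.0735 over the members. Whether the numbers pair samples was not tested beyond these correlations. Alternatives were the pseudocount, the filter, the scaling, the trend, a replicate block, fits of 2 groups and leaving out each library.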

Additional observations from a re-analysis of the deposited data

Results flagged for a closer look

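The mutated and the wild-type CTCF line, both with IAA, differed for 11 members by limma's test of the difference itself (Benjamini-Hochberg adjusted over all tested genes). The form and the line that carries it cannot be told apart, and 4 of these calls passed in every alternative. The mutated form was higher for Mrpl57 by 0.56 on the log2 scale, Mrpl50 by 0.43, Mrps30 by 0.27, Mrpl15 by 0.19 and Mrps27 by 0.17. It was lower for Mrpl37 (-0.40), Mrps2 (-0.35), Mrpl52 (-0.33), Mrps15 (-0.27), Mrpl38 (-0.27) and Mrpl48 (-0.17). Of all tested genes, 34.7% passed the same test. Groups of 2 libraries are too small for a test of single outlying libraries.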

How the results depend on the processing

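Fitted without the mean-variance trend, 7 members (wild-type) and 4 (mutated CTCF) were called against the control with IAA, 6 between the forms, and 14 and 12 against the untreated control. Leaving out 1 library at a time gave 9 to 14 members with IAA, 5 to 18 for wild-type and 7 to 13 for mutated CTCF against the control with IAA, 6 to 13 between the forms, and 10 to 23 and 10 to 17 against the untreated control. The difference of Mrpl23 between the forms ran from -0.26 to 0.13, and that of Mrps2 between wild-type CTCF and the untreated control from -0.31 to 0.021, across the libraries left out. The cause of these changes was not tested, and the share of all tested genes called in these alternatives is not given here. The replicate block gave 18 members with IAA, 20 and 18 for wild-type and mutated CTCF, and 13 between the forms. Against the untreated control it gave 31 and 25. Each of the 109 member values followed across alternatives stayed on its side of the threshold with the block. These were the calls of the main fit, Mrpl23 between the forms, and Mrps2 with wild-type CTCF against the untreated control. Other members that gained a call with the block were not among them. With median-of-ratios factors and the block together, Mrps2 passed in wild-type CTCF cells against the untreated control (-0.20, adjusted p = 0.0439). A count test on recovered reads with edgeR was planned and not run. With 2 libraries a group and as few as 2 reads of a member in a library, small differences of the low members were not detectable at this depth.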
